A study of Saccharomyces cerevisiae with 23 samples.

Results

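Protein prenylation attaches a farnesyl or geranylgeranyl lipid, both built from mevalonate, to a cysteine near the end of a protein, and the lipid holds Ras, Rab and other small GTP-binding proteins on membranes. The same precursors also feed dolichol, the long lipid on which the sugar chains of glycoproteins are assembled in the endoplasmic reticulum. Statins inhibit the step that yields mevalonate (HMG-CoA reductase) and so act upstream of both branches. Here 10 budding yeast genes of these branches were followed: RAM1, RAM2, CDC43, BET2, BET4 and MRS6 of the prenyltransferases, STE14 of prenylcysteine methylation, BTS1 of geranylgeranyl diphosphate synthesis, and RER2 and SRT1 of dolichol synthesis. They were chosen by name, and all 10 were found on the array of 6256 genes and were among the 5606 genes tested.

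Total RNA came from cultures of the haploid strain BY4741a that lack PDR5, a plasma membrane drug efflux pump, and was measured on 2-colour arrays in 17 biological samples (23 arrays). The groups were a statin at 5 µg/mL, the statin with 1 mM CuSO4, the statin with 2 mM ZnSO4, CuSO4 alone, ZnSO4 alone, and untreated cultures, with 3 biological samples each except 2 for the statin with ZnSO4. All cultures, untreated ones included, lacked PDR5, grew at 30 °C in complete synthetic medium (2% glucose), and were treated in the presence of 0.25 mM EDTA, a metal chelator, and 0.1% DMSO, the vehicle. Treatment began at an OD600 of 0.1 in every group. Statin cultures had also been pregrown with the statin from an OD600 of 0.09, against 0.01 for the others, and were collected at about OD600 0.4, against about 0.8, so the statin and these densities cannot be told apart. The labels do not name the statin.

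Each level is a log2 ratio of a sample over a pool made from RNA of the 6 conditions, and a change is the difference of 2 group means of such ratios. Errors written with ± are standard errors from limma, or SDs where so marked. A gene was called changed at a limma adjusted p (Benjamini-Hochberg over the 5606 genes) under 0.05. In these bulk cultures, fewer cells with a transcript and less of it per cell cannot be told apart. Nothing in the labels beyond the word biological says how replicate cultures were separated, and p-values measure the spread between these samples.

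The 3 replicate numbers each had a scan date of their own in the file headers. Arrays sharing a scan date are called a slide here. Whether such a set was a physical slide was not checked. On the first slide, 98.4% or more of an array's spots stood well above background, against 89.9% or less on the third. Both spots of 8 of the 10 probes were well above background on all 23 arrays. STE14 fell short on 2 arrays and SRT1 on 4, all of the third slide, and these included the statin array of replicate 3 for both genes and both ZnSO4 arrays of replicate 3 for SRT1. Replicate 2 of the statin with CuSO4 stood apart, with r = 0.273 over genes against replicate 1 and 0.629 against replicate 3. For the deleted PDR5, both spots were well above background on 0 of 23 arrays. For other genes listed as deleted or disrupted in the strain, this held on 0 arrays for HIS3, 2 for LEU2, 6 for URA3 and 15 for MET17. Being well above background thus does not by itself show that a gene was expressed.

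Over 9 comparisons, 7 between groups and 2 interactions, STE14 and SRT1 carried the main changes. STE14 was lower in every sample with statin than in every sample without, and SRT1 was higher with statin against untreated. SRT1 was also lower with ZnSO4 against untreated, but this call passed narrowly and was lost in 8 of 12 alternative settings or sample sets. Its change of -0.37 with CuSO4 did not pass, and CuSO4 and ZnSO4 were not shown to differ for SRT1 (limma adjusted p = 0.606). The prenyltransferase genes changed by at most 0.45 in any of the 7 comparisons between groups: RAM1 fell when either metal was added to the statin, and RAM2, CDC43 and BET2 were each lower in 1 comparison. BTS1 was slightly higher with statin. BET4, MRS6 and RER2 did not pass the test in any of the 9.

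**Figure D1:**
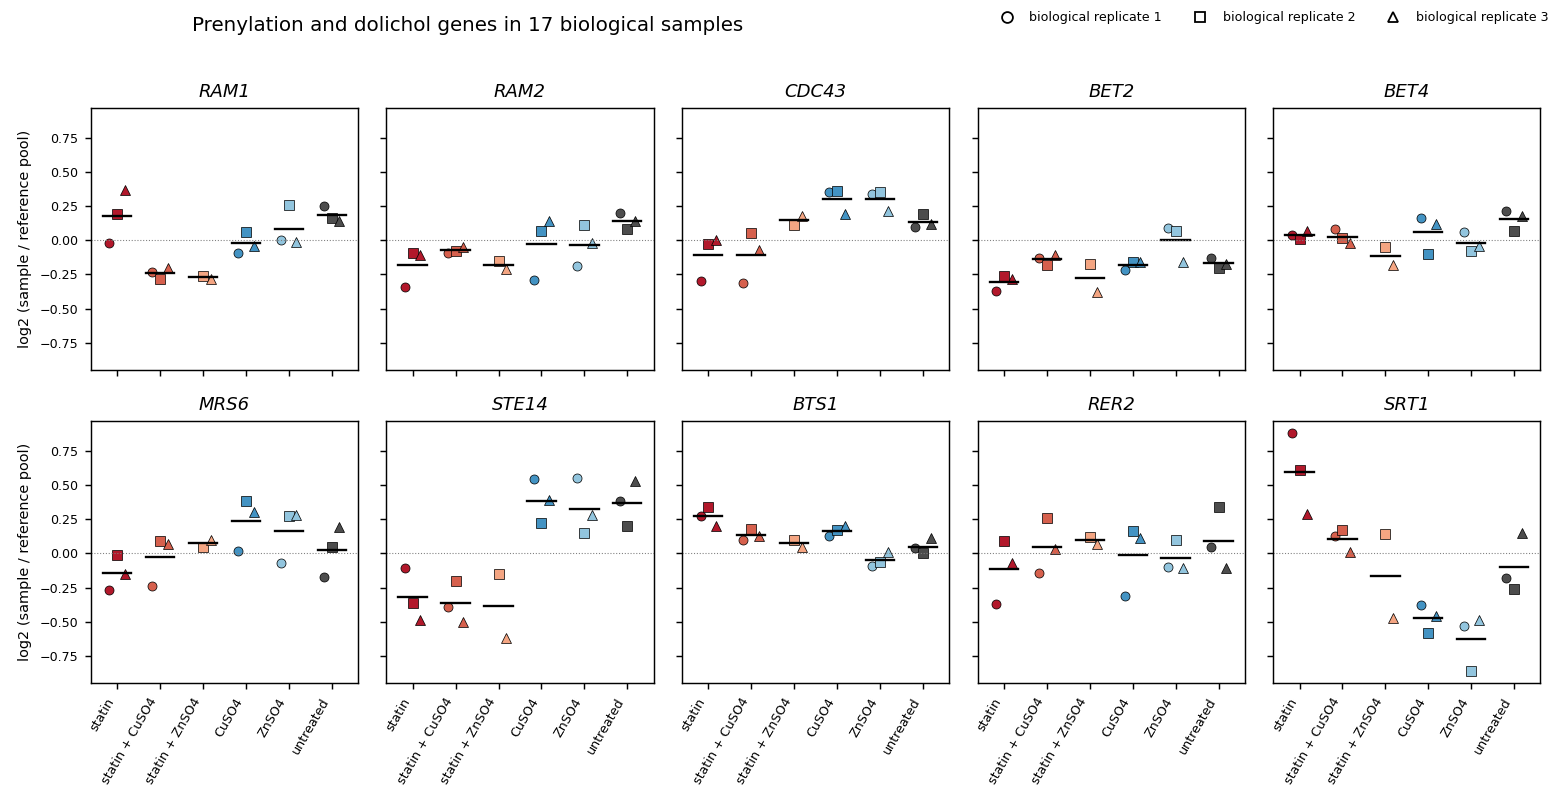
Log2 ratio of each of the 10 genes over the reference pool (vertical axis) in the 6 groups (horizontal axis). Points are biological samples, shaped by replicate number, and bars are group means; the 8 samples with statin lie at -0.62 to -0.11 for STE14, below the 9 without at 0.15 to 0.55.

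STE14 encodes the methyltransferase that caps the prenylated cysteine of farnesylated and geranylgeranylated CaaX proteins, the last step of their maturation, and it is needed to make the mating pheromone a-factor. Its log2 ratios were -0.11, -0.36 and -0.49 with statin, against 0.38, 0.20 and 0.53 in untreated cultures. They were -0.39, -0.20 and -0.50 with statin and CuSO4, against 0.54, 0.22 and 0.39 with CuSO4. They were -0.15 and -0.62 with statin and ZnSO4, against 0.55, 0.15 and 0.28 with ZnSO4. In each pair the groups did not overlap, and over all samples the 8 with statin lay below the 9 without. Of all genes tested, 5.14% had all samples with statin below all samples without, and 6.35% had them above.

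STE14 fell 1.61-fold with statin against untreated (log2 -0.69 ± 0.15, adjusted p = 0.00239). The change was -0.75 ± 0.15 with CuSO4 present on both sides (adjusted p = 0.00126) and -0.71 ± 0.17 with ZnSO4 on both sides (adjusted p = 0.00640). The 3 comparisons use different samples. Adding a metal moved STE14 little: the change was -0.04 ± 0.15 for statin with CuSO4 against statin, -0.06 ± 0.17 for statin with ZnSO4 against statin, 0.01 ± 0.15 for CuSO4 against untreated and -0.04 ± 0.15 for ZnSO4 against untreated, with 95% intervals reaching 0.42 in size at most. Its interaction of statin with CuSO4, the metal's effect with statin minus that without, was -0.06 (95% interval -0.51 to 0.40), and with ZnSO4 it was -0.02 (-0.51 to 0.46).

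Within slides, STE14 was lower with statin each time, by -0.49, -0.56 and -1.02 against untreated, by -0.92, -0.43 and -0.89 against CuSO4, and by -0.30 and -0.90 in the ZnSO4 pair. Without the third slide, the statin against untreated difference was -0.53 (adjusted p = 0.0745). In the ZnSO4 pair the call was lost without replicate 3 of the statin with ZnSO4 (-0.48, adjusted p = 0.131) or without the third slide (-0.50, adjusted p = 0.192), whereas the CuSO4 pair kept its call under all 12 alternatives.

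In the order of its 6 group means, STE14 had CuSO4 (0.38 ± 0.16, SD, n = 3), untreated (0.37 ± 0.17), ZnSO4 (0.33 ± 0.20), statin (-0.32 ± 0.19), statin with CuSO4 (-0.36 ± 0.15) and statin with ZnSO4 (-0.38 ± 0.33, SD, n = 2). Neighbours in this order did not pass the test except statin and ZnSO4, which lay 0.65 apart (adjusted p = 0.00227). That was the only one of 50 neighbour pairs over the 10 genes to pass. The group means of STE14 spanned 0.76 on the log2 scale, against a median span of 0.61 over all genes tested.

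SRT1 and RER2 encode 2 forms of cis-prenyltransferase, which builds the dehydrodolichol chain: RER2 is the main one in growing cells, and SRT1 makes longer chains and is known for late growth phases. SRT1 had log2 ratios of 0.88, 0.61 and 0.29 with statin, against -0.18, -0.26 and 0.15 in untreated cultures. All statin samples were above all untreated ones, and replicate 3 of the statin group was the lowest of its group. SRT1 rose 1.62-fold with statin (log2 0.69 ± 0.17, adjusted p = 0.00568), with differences of 1.07, 0.87 and 0.14 on the 3 slides, and kept its call under all 12 alternatives (highest adjusted p = 0.0323). The densities named above, at which the precultures were started and the cultures collected, moved with this difference, and their part in it was not tested.

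With ZnSO4, SRT1 had -0.53, -0.86 and -0.49, below each untreated sample. It fell 1.44-fold (log2 -0.53 ± 0.17, adjusted p = 0.0495). This call was lost when any 1 of the 6 samples was left out (adjusted p = 0.0576 to 0.190), without the filter on dim probes (adjusted p = 0.0534) and without the third slide (adjusted p = 0.118), while the deposited log ratio gave -0.92 (adjusted p = 0.0237). Both ZnSO4 arrays of replicate 3 were not well above background for SRT1. With CuSO4, SRT1 had -0.38, -0.58 and -0.46, again below each untreated sample, with a change of -0.37 ± 0.17 that did not pass (adjusted p = 0.109).

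With the statin present, the metal groups were again the lower ones. SRT1 had 0.14 and -0.47 with statin and ZnSO4, below each of the 3 statin samples, and fell by 0.76 ± 0.19 on the log2 scale (adjusted p = 0.0107). Without replicate 3 of the statin with ZnSO4 the change was -0.46 (adjusted p = 0.202), without the third slide it was -0.61 (adjusted p = 0.111), and with only these groups fitted it kept its size (adjusted p = 0.0550). SRT1 had 0.13, 0.17 and 0.01 with statin and CuSO4, below each statin sample too, and the change of -0.49 ± 0.17 did not pass (adjusted p = 0.0664), although it did without statin replicate 3 (-0.64, adjusted p = 0.0286).

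Set against the metal alone, the statin samples were higher: SRT1 rose by 0.58 ± 0.17 with statin and CuSO4 against CuSO4 (adjusted p = 0.0139). Without CuSO4 replicate 2 this was 0.52 (adjusted p = 0.0507). The difference of statin with ZnSO4 against ZnSO4 was 0.46 ± 0.19 (adjusted p = 0.0901), and 0.99 and 0.02 on slides 2 and 3. It passed without replicate 3 of the statin with ZnSO4 (0.76, adjusted p = 0.0324), without the third slide (0.83, adjusted p = 0.0304) and with 1 array per sample (0.65, adjusted p = 0.0154). The interactions of SRT1 were -0.12 (95% interval -0.64 to 0.40) for CuSO4 and -0.24 (-0.79 to 0.32) for ZnSO4. From high to low, the group means ran statin (0.59 ± 0.30, SD, n = 3), statin with CuSO4 (0.10 ± 0.08), untreated (-0.10 ± 0.22), statin with ZnSO4 (-0.17 ± 0.43, SD, n = 2), CuSO4 (-0.47 ± 0.10) and ZnSO4 (-0.62 ± 0.20), and no neighbours in this order passed the test. They spanned 1.22, at percentile 81.5 of all genes tested.

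RER2 varied more between replicates than between groups. It had -0.37, 0.09 and -0.07 with statin, against 0.05, 0.34 and -0.11 in untreated cultures, and these overlapped. Its change with statin was -0.21 ± 0.16 (adjusted p = 0.305), and none of the 7 comparisons between groups gave a change beyond 0.21 in size. Its group means spanned the least of the 10 genes, 0.21, at percentile 5.26 of all genes tested.

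The difference of SRT1 minus RER2 in each sample averaged 0.71 ± 0.48 with statin and -0.19 ± 0.43 in untreated cultures (SD, n = 3 each), so the 2 groups differed by 0.91, and no values overlapped. It averaged -0.26 ± 0.40 with statin and ZnSO4 (n = 2), which was 0.98 lower than with statin. Over 4 gene pairs and 7 comparisons, 28 exact permutation tests were run (two-sided), and with samples this few none can give a p below 0.1. The lowest adjusted p was 0.28, for these differences among others.

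**Figure D2:**
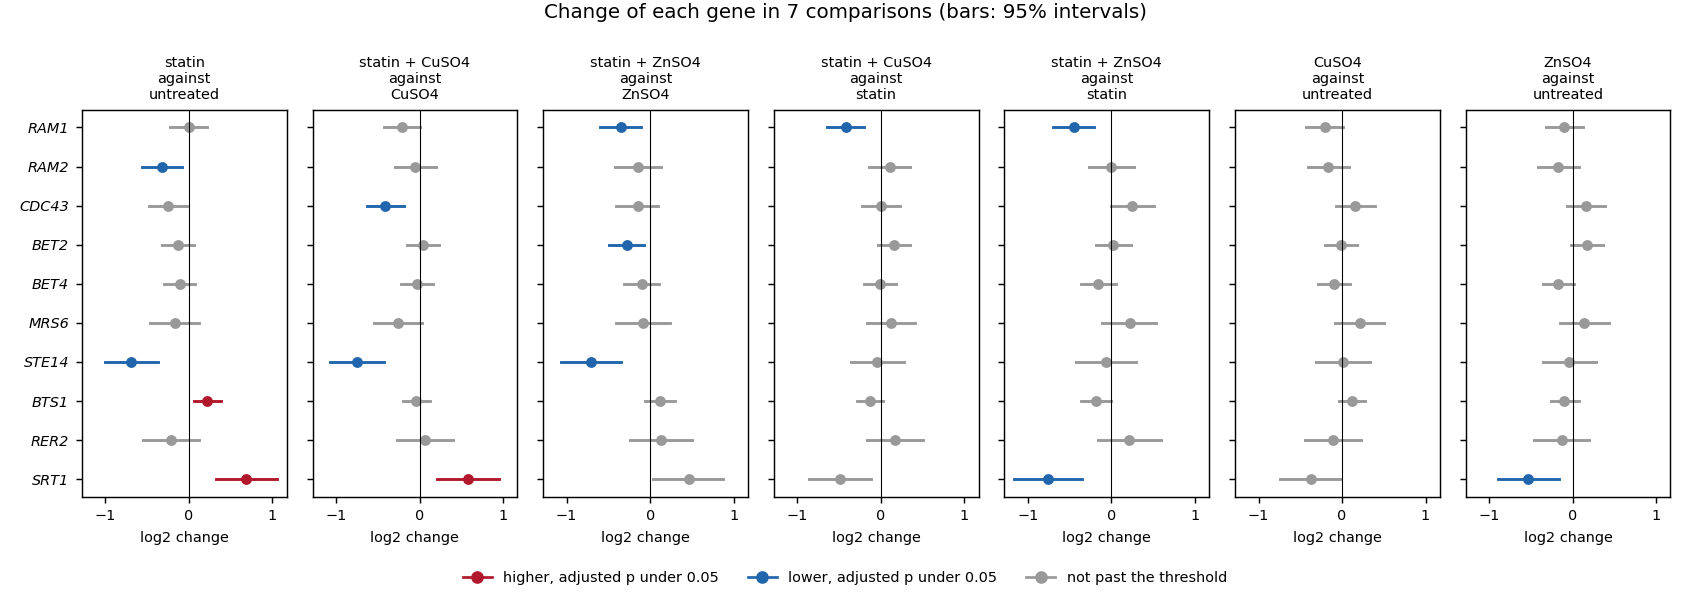
Log2 change (horizontal axis) of each of the 10 genes in 7 comparisons, with 95% intervals from limma; coloured points passed an adjusted p of 0.05. STE14 is lower in all 3 comparisons of statin with no statin, at -0.69, -0.75 and -0.71, and its intervals include 0 in the other 4.

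RAM1 and CDC43 encode the β subunits of farnesyltransferase and of geranylgeranyl transferase I, which modify CaaX proteins, and RAM2 encodes the α subunit that both enzymes share. RAM1 had -0.23, -0.28 and -0.20 with statin and CuSO4, and -0.26 and -0.28 with statin and ZnSO4, against -0.02, 0.19 and 0.37 with statin. Both metal groups lay below all 3 statin samples and were tight, while the statin samples were spread. RAM1 fell 1.34-fold with CuSO4 added to the statin (log2 -0.42 ± 0.10, adjusted p = 0.0101) and 1.37-fold with ZnSO4 (-0.45 ± 0.12, adjusted p = 0.0114). The 2 comparisons share the statin samples.

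The first of these calls was lost without statin replicate 3 (-0.33, adjusted p = 0.0604), and the second without either sample of the statin with ZnSO4 (adjusted p = 0.0568 and 0.0833). The call with CuSO4 was also lost without the third slide (-0.34, adjusted p = 0.176). The change with ZnSO4 was then -0.35, with only replicate 2 of the statin with ZnSO4 left. Neither call held with only the compared groups fitted (adjusted p = 0.0807 and 0.0671). Within every slide RAM1 was lower with the metal, by -0.22, -0.47 and -0.57 for CuSO4 and by -0.45 and -0.65 for ZnSO4. Since these groups did not overlap, that direction was fixed in advance and is no separate test.

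Without statin the metals moved RAM1 by -0.21 ± 0.10 for CuSO4 (adjusted p = 0.133) and by -0.10 ± 0.10 for ZnSO4 (adjusted p = 0.580). The interactions were -0.21 (95% interval -0.52 to 0.10, adjusted p = 0.370) for CuSO4 and -0.35 (-0.68 to -0.02, adjusted p = 0.458) for ZnSO4, so the metal effects with and without statin were not shown to differ. Against ZnSO4 alone, RAM1 was lower with statin and ZnSO4 (-0.35 ± 0.12, adjusted p = 0.0334). That call was lost without either sample of the statin with ZnSO4 (adjusted p = 0.107 and 0.160), without ZnSO4 replicate 2 (adjusted p = 0.122), with only these groups fitted (adjusted p = 0.0943) and without the third slide (adjusted p = 0.173). The statin alone left RAM1 at 0.18 on average, against 0.19 in untreated cultures.

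RAM2 had -0.34, -0.09 and -0.11 with statin, against 0.20, 0.08 and 0.14 in untreated cultures, with no overlap. It fell 1.25-fold (log2 -0.32 ± 0.11, adjusted p = 0.0400), by -0.54, -0.17 and -0.24 on the 3 slides. The call was lost on the deposited log ratio (adjusted p = 0.0679), without the third slide (adjusted p = 0.161) and without any 1 of statin replicates 1 and 3 or of the 3 untreated samples (adjusted p = 0.0552 to 0.152); without statin replicate 1 the change was -0.24.

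CDC43 had -0.31, 0.05 and -0.07 with statin and CuSO4, against 0.35, 0.36 and 0.19 with CuSO4, again with no overlap. It fell 1.32-fold (log2 -0.41 ± 0.11, adjusted p = 0.00691), by -0.65, -0.30 and -0.26 on the 3 slides, and was called under all 12 alternatives. With statin against untreated, CDC43 had -0.30, -0.03 and 0.00, against 0.10, 0.19 and 0.12, a change of -0.25 ± 0.11 that did not pass (adjusted p = 0.0824) but did with the slide as a replicate block (adjusted p = 0.0473). Its interactions were -0.16 (95% interval -0.48 to 0.17) with CuSO4 and 0.09 (-0.25 to 0.44) with ZnSO4.

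BET2 and BET4 encode the β and α subunits of geranylgeranyl transferase II, which modifies Rab proteins, and MRS6 encodes the Rab escort protein that presents them to it. BET2 had -0.17 and -0.38 with statin and ZnSO4, against 0.09, 0.07 and -0.16 with ZnSO4. The groups did not overlap, though the nearest samples lay close together, and BET2 fell 1.21-fold (log2 -0.28 ± 0.10, adjusted p = 0.0469). Without replicate 3 of the statin with ZnSO4 the change was -0.17 (adjusted p = 0.383), and the call was also lost without ZnSO4 replicate 1 or 2 (adjusted p = 0.146 and 0.128), without the filter on dim probes (adjusted p = 0.0515), with only these groups fitted (adjusted p = 0.189) and without the third slide (adjusted p = 0.229).

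Over all samples BET4 lay between -0.18 and 0.21, and its changes in the 7 comparisons between groups were at most 0.17 in size. It was lower with statin and ZnSO4 against untreated, a pair that differs in both agents (-0.27 ± 0.10, adjusted p = 0.0444). MRS6 lay between -0.27 and 0.38, with its highest mean, 0.24, with CuSO4. Its change with CuSO4 against untreated was 0.21 ± 0.14 (adjusted p = 0.245), and with statin and CuSO4 against CuSO4 -0.26 ± 0.14 (adjusted p = 0.132). With the slide as a replicate block, both passed (adjusted p = 0.0255 and 0.00766), and within slides MRS6 was higher with CuSO4 by 0.19, 0.34 and 0.11 and lower with statin and CuSO4 by -0.26, -0.29 and -0.23. It was also lower with statin than with CuSO4, again a pair that differs in both agents (-0.38 ± 0.14, adjusted p = 0.0271).

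BTS1 encodes the synthase of geranylgeranyl diphosphate, the lipid that CDC43 and BET2 enzymes attach. It had 0.27, 0.34 and 0.20 with statin, against 0.04, 0.00 and 0.11 in untreated cultures, with no overlap. BTS1 rose 1.16-fold (log2 0.22 ± 0.08, adjusted p = 0.0338), by 0.23, 0.34 and 0.09 on the 3 slides. The call was lost without statin replicate 1 or 2 or untreated replicate 1 or 2 (adjusted p = 0.0712 to 0.114), with only these groups fitted (adjusted p = 0.109) and without the third slide (adjusted p = 0.0760). Its differences were -0.13 ± 0.08 with CuSO4 added to the statin (adjusted p = 0.275) and -0.19 ± 0.08 with ZnSO4 (adjusted p = 0.122), the second of which passed on the deposited log ratio (-0.26, adjusted p = 0.0471).

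**Figure D3:**
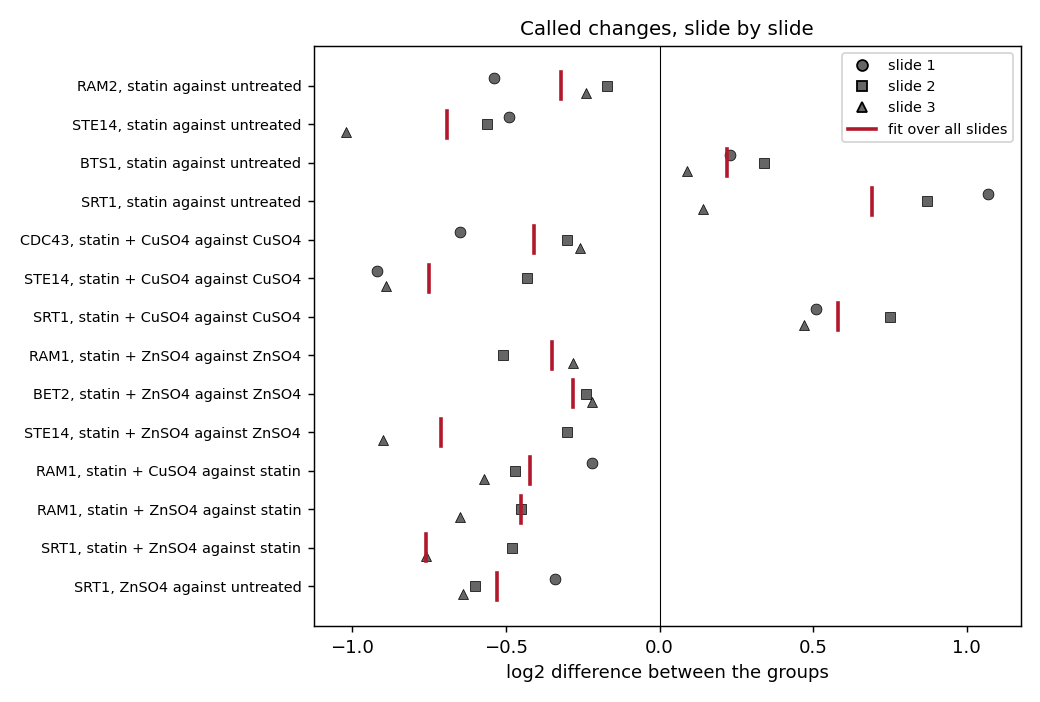
Log2 difference between the groups (horizontal axis) on each slide, for the 14 called changes of the 10 genes, with the fitted change over all slides as a red line. All 14 keep their direction on every slide that holds both groups. They were called from these same samples, so the shared direction is not a separate test of them. The SRT1 difference of statin against untreated is 1.07, 0.87 and 0.14.

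Counted by comparison, 4 of the 10 genes were called with statin against untreated (SRT1 and BTS1 higher, STE14 and RAM2 lower), where 36.8% of all genes tested were called, 18% higher and 18.8% lower. Their median change was -0.15, against -0.01 over all genes. With statin and CuSO4 against CuSO4, 3 were called (44.3% of all genes), and with statin and ZnSO4 against ZnSO4 also 3 (28.6% of all genes), with medians of -0.04 and -0.12. Adding CuSO4 to the statin gave 1 call (16.7% of all genes) and adding ZnSO4 gave 2 (22% of all genes), with medians of 0.00 and -0.03. Without statin, ZnSO4 gave 1 call (16.6% of all genes). All these shares lay near or below those of all genes.

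With CuSO4 against untreated, 0 of 10 passed limma's test (34.6% of all genes did), 1 had an unadjusted p under 0.05 (SRT1), and 1 passed with the slide as a replicate block (MRS6). The interaction of statin with CuSO4 had 0 calls among the 10 (18.4% of all genes), with 1 at an unadjusted p under 0.05 (BTS1), which passed on the Feature Extraction log ratio (-0.35, adjusted p = 0.0458). The interaction with ZnSO4 had 0 calls (1.03% of all genes), with 1 at an unadjusted p under 0.05 (RAM1). Comparisons of statin, CuSO4 and ZnSO4 with untreated share the untreated samples. The pairs outside these comparisons, used for the order of levels, called 54.9% of all genes for statin against CuSO4, 48.8% for statin against ZnSO4, 0.482% for statin with CuSO4 against statin with ZnSO4, 37.7% for statin with CuSO4 against ZnSO4, 32.9% for it against untreated, 27.2% for statin with ZnSO4 against CuSO4, 35.8% for it against untreated, and 15.7% for CuSO4 against ZnSO4.

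Genes whose patterns over the 17 samples lay nearest to STE14, by the root-mean-square difference of centred log2 ratios, were SLC1 (0.10), RPB3 (0.11) and LSM7 (0.11), where the median over all genes was 0.47. The nearest to SRT1 were YOR062C (0.18), PMC1 (0.20) and MPC3 (0.21), with a median of 0.52. CLC1, YHC3 and YPT11 lay nearest to RAM1 (0.12 each, with a median of 0.33).

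Among 12 genes of farnesylated proteins, which are substrates of the RAM1 and RAM2 enzyme, 2 were higher and 4 lower with statin against untreated (18% and 18.8% of all genes tested). RHO3, which acts in polarised growth, fell by 0.80 ± 0.16 (adjusted p = 0.00141), and the pheromone gene MFA1 rose by 0.54 ± 0.18 (adjusted p = 0.0254). MFA2, which encodes the same pheromone, fell by 0.50 ± 0.19 (adjusted p = 0.0495), but its groups overlapped, and the call was lost in 7 of 12 alternatives (changes of -0.64 to -0.28), against 4 of 12 for MFA1. RHO3 was also lower with statin and CuSO4 against CuSO4 (-0.75 ± 0.16) and with statin and ZnSO4 against ZnSO4 (-1.21 ± 0.18, adjusted p = 0.000256).

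The 2 Ras genes encode switches of the cyclic AMP pathway and are farnesylated. With statin against untreated, neither passed (0.08 ± 0.13 for RAS1 and -0.18 ± 0.11 for RAS2). Both were lower with statin where a metal was present on both sides: RAS1 by -1.47 ± 0.13 and RAS2 by -0.40 ± 0.11 for CuSO4, and RAS1 by -0.55 ± 0.15 and RAS2 by -0.64 ± 0.12 for ZnSO4, where the RAS1 call was lost in 2 of 11 alternatives. RAS1 had -1.06, -0.77 and -1.13 with statin and CuSO4, and -0.63 and -0.79 with statin and ZnSO4, against 0.07, -0.05 and 0.07 with statin. The metal groups lay below all statin samples. RAS1 fell 2.02-fold with CuSO4 added to the statin (log2 -1.01 ± 0.13, adjusted p = 4.9e-05) and by 0.74 ± 0.15 with ZnSO4 (adjusted p = 0.00202). Without statin it had 0.56, 0.66 and 0.23 with CuSO4, against -0.14, 0.18 and -0.19 in untreated cultures, and rose by 0.54 ± 0.13 (adjusted p = 0.00491), while ZnSO4 against untreated gave -0.11 ± 0.13 (adjusted p = 0.623).

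The direction of the CuSO4 effect on RAS1 thus differed with the statin: the interaction was -1.55 ± 0.18 (adjusted p = 0.000270), and RAS1 was the only gene of the 12 other lists tested that was called in an interaction. Of all genes tested, 18.4% were called in the interaction with CuSO4 and 1.03% in that with ZnSO4. For RAS1 the interaction with ZnSO4 was -0.63 and was not called. RAS2 had -0.44, -0.38 and -0.63 with statin and CuSO4, and -0.56 and -0.94 with statin and ZnSO4, against 0.04, 0.18 and 0.06 with statin. RAS2 fell by 0.58 ± 0.11 (adjusted p = 0.00172) and 0.84 ± 0.12 (adjusted p = 0.000174) in these comparisons, and by 0.35 ± 0.11 with CuSO4 (adjusted p = 0.0218) and 0.38 ± 0.11 with ZnSO4 (adjusted p = 0.0263) against untreated.

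**Figure D4:**
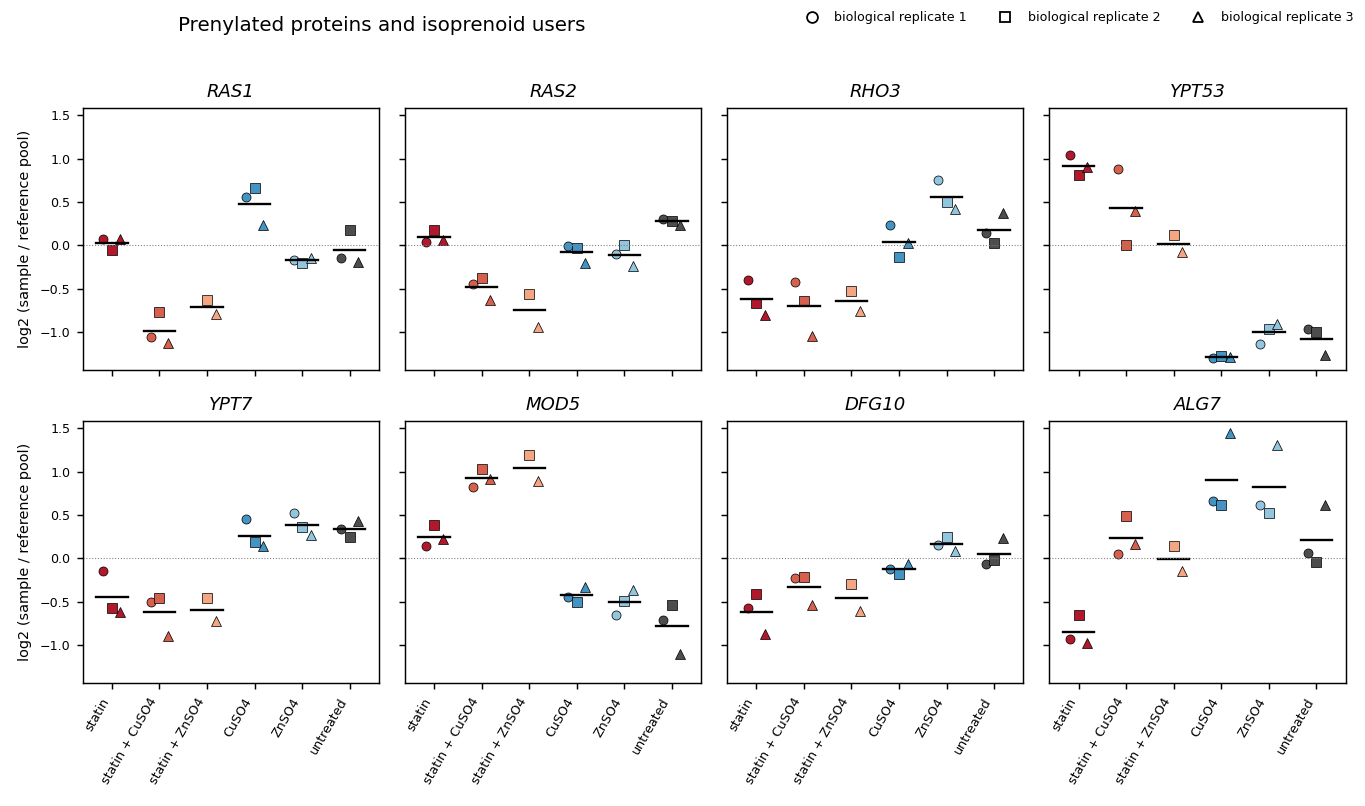
Log2 ratio over the reference pool (vertical axis) of 8 genes of other lists in the 6 groups, with points for biological samples and bars for means. RAS1 lies at -1.13 to -0.77 with statin and CuSO4, against -0.05 to 0.07 with statin, and at 0.23 to 0.66 with CuSO4, against -0.19 to 0.18 in untreated cultures.

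Of 12 genes in the Rab list, whose Rab proteins are substrates of the BET2 and BET4 enzyme, 2 were higher and 1 lower with statin against untreated (18% and 18.8% of all genes tested). YPT53, an endosomal Rab of the Rab5 type, had 1.04, 0.81 and 0.90 with statin, against -0.97, -1 and -1.26 in untreated cultures. YPT53 rose 3.98-fold (log2 1.99 ± 0.16, adjusted p = 3.5e-07), and its paralog VPS21 rose by 0.48 ± 0.12 (adjusted p = 0.00644). YPT7, the vacuolar Rab, fell by 0.79 ± 0.15 (adjusted p = 0.000734). The direction of all 3 was the same with CuSO4 or ZnSO4 on both sides, and ZnSO4 added to the statin lowered YPT53 by -0.90 ± 0.18 (adjusted p = 0.00269).

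Of 5 genes of CaaX processing and a-factor maturation, limma called 0 with statin against untreated (36.8% of all genes tested), and 0 had an unadjusted p under 0.05. RCE1 and STE24, proteases that trim the CaaX end before STE14 acts, changed by -0.11 ± 0.11 and 0.05 ± 0.13, against -0.69 ± 0.15 for STE14. RCE1 was called once, lower with statin and CuSO4 against CuSO4 (-0.38 ± 0.11, adjusted p = 0.00977). STE6, the a-factor exporter, was higher with CuSO4 (0.49 ± 0.10, adjusted p = 0.00136) and with ZnSO4 (0.35 ± 0.10, adjusted p = 0.0229) against untreated.

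Upstream, 3 of 9 genes of isoprenoid supply were higher with statin against untreated (18% of all genes tested) and 0 lower (18.8%). The higher ones were MVD1 by 0.91 ± 0.19, ERG13 by 0.61 ± 0.15 and HMG1, a target of the statin, by 0.56 ± 0.08. ERG20, the farnesyl diphosphate synthase at the branch point, changed by -0.03 ± 0.17 (adjusted p = 0.918). Among 5 other users of these precursors, MOD5, the tRNA isopentenyltransferase, rose by 1.04 ± 0.14 (adjusted p = 3.4e-05) and ERG9, squalene synthase, by 0.88 ± 0.12 (adjusted p = 5.2e-05). With statin and ZnSO4 against ZnSO4, MOD5 was higher by 1.54 ± 0.15 and ERG9 by 1.23 ± 0.14.

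In the list of dolichol maturation and recycling, which also holds NUS1, 2 of 5 genes were lower with statin against untreated and 0 higher (median -0.27). The shares of all genes tested were 18.8% lower and 18% higher. DFG10, the reductase that saturates the polyprenol end, fell by 0.67 ± 0.13 (adjusted p = 0.00111) and SEC59, dolichol kinase, by 0.46 ± 0.16 (adjusted p = 0.0310). Both were also lower with statin and ZnSO4 against ZnSO4 (-0.62 ± 0.15 and -0.53 ± 0.18). With statin and CuSO4 against CuSO4 neither passed (-0.20 ± 0.13, adjusted p = 0.230, and -0.31 ± 0.16, adjusted p = 0.119). The SEC59 calls were lost in 5 of 12 and 6 of 11 alternatives. NUS1, the partner subunit of the cis-prenyltransferases, was called only with statin and ZnSO4 against ZnSO4 (-0.44 ± 0.15, adjusted p = 0.0427). That call was lost in 6 of 11 alternatives (highest adjusted p = 0.268). With statin against untreated NUS1 changed by -0.27 ± 0.14 (adjusted p = 0.128).

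Of 14 genes that assemble the sugar chain on dolichol, 5 were lower and 1 higher with statin against untreated (median -0.20). The shares of all genes tested, for this list and the next ones, were 18.8% lower and 18% higher. ALG7, which starts the chain, had -0.93, -0.65 and -0.97 with statin, against 0.06, -0.04 and 0.62 in untreated cultures, and fell 2.09-fold (log2 -1.07 ± 0.25, adjusted p = 0.00333). ALG7 rose by 1.09 ± 0.25 with CuSO4 added to the statin and by 0.85 ± 0.27 with ZnSO4. The call with ZnSO4 was lost in 5 of 11 alternatives (highest adjusted p = 0.225), that with CuSO4 in 0 of 12. Without statin, ALG7 also rose with CuSO4 against untreated, by 0.7 ± 0.25 (limma adjusted p = 0.0385), a call lost in 5 of 12 alternatives. ZnSO4 against untreated gave 0.6 ± 0.25, which did not pass (limma adjusted p = 0.114). In either interaction 0 of the 14 genes were called, against 18.4% (CuSO4) and 1.03% (ZnSO4) of all genes tested. The single gene that was higher with statin against untreated, ALG1, the first mannosyltransferase, rose by 0.47 ± 0.09 (adjusted p = 0.00139). Of 9 oligosaccharyltransferase genes, 2 were lower, OST1 (-0.70 ± 0.14) and SWP1 (-0.61 ± 0.15), and 0 higher. Of 6 protein O-mannosyltransferase genes, which use dolichol-linked mannose, PMT3 rose by 0.71 ± 0.22 and PMT2 fell by 0.77 ± 0.18.

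The strain carries the MATa mating type, which makes a-factor. Of 7 MATa genes, each was well above background on 16 to 23 of 23 arrays, and with statin against untreated MFA1 was higher and MFA2 and STE2, the α-factor receptor gene, were lower (STE2 by -0.76 ± 0.17). The 3 MATalpha markers were not absent: STE3 was well above background on 22 arrays, MFALPHA1 on 15 and MFALPHA2 on 14. Their summed signal, as a multiple of each array's median signal, was 0.321 to 0.43 with statin and CuSO4, against 0.434 to 0.765 with CuSO4, and 2 of 2 tested were lower there (44.3% of all genes tested were called in either direction). MFALPHA1 changed by -1.29 ± 0.32 in that pair. This was -0.84 without CuSO4 replicate 3, -0.77 without the third slide and -2.19 on the deposited log ratio. Against untreated, MFALPHA1 rose by 1.2 ± 0.32 with CuSO4 alone (limma adjusted p = 0.00949). ZnSO4 alone gave 0.97 ± 0.32, which did not pass (limma adjusted p = 0.0514). MFALPHA1 had -0.21, -0.48 and -0.56 with statin and CuSO4, against -0.28, -0.37 and -0.33 in untreated cultures. STE3, at -0.49 ± 0.19, lost its call in 8 of 12 alternatives. The sum was 0.358 to 0.535 with statin and ZnSO4, against 0.486 to 0.778 with ZnSO4, and 1 of 2 was lower (MFALPHA1, -1.16 ± 0.36), where 28.6% of all genes were called. It was 0.37 to 0.595 with statin, against 0.428 to 0.548 in untreated cultures, where 0 of 2 passed (36.8% of all genes did). Their part in the STE14, CDC43 and SRT1 differences was not tested.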

How the data were processed

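RNA of each sample (Cy3) was hybridised with a reference pool of all 6 conditions (Cy5) with no dye swap. The submitters' processing notes name Feature Extraction 10.5.1.1. In the scanner files, the authors deposited spot and background intensity as medians over pixels, per the file headers. These replaced the mean intensities otherwise used. The authors' deposited value table holds log10 sample over reference after background subtraction and dye normalization, equal to the scanner's log10 ratio with its sign turned within 5e-06. Its column medians were 0 to 0.00326.

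From the deposited intensities, log2 ratios were computed here in limma 3.58.1 (R 4.3.3) by normexp (offset 50) and loess within arrays, with control spots at weight 0 and outlier spots missing. Both spots of a probe, then the arrays of a biological sample, were averaged. Pairs of biological samples, after this averaging, correlated down to r = -0.56. No sign was turned, since the dye of each channel is given in the labels. Genes entered the test (5606 of 6256) when some group had both Cy3 spots well above background on each of its arrays. No spot was saturated, and array medians of the Cy3 signal ran from 913.5 to 2999. The number of arrays limits the precision. The 6 groups were fitted together with 11 residual degrees of freedom, and p-values are two-sided. The fit was tested on simulated data. Replicate 1 of the statin with ZnSO4 was not analysed here.

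The 10 genes and the other lists were chosen with earlier results of these data known. All 10 are named in every comparison; from other lists, called genes were named, at most the 4 largest per list and comparison, plus NUS1, STE24, RCE1 and ERG20. Patterns were compared for each of the 7 genes called at least once. Some genes and a list that were tested are not reported here. Names were taken from the R64 gene table, which matched 5756 probes, and no coordinates were used because its build differs from that of the files (sacCer1). Alternatives were the deposited log ratio, Aquantile, no filter on dim probes, only the compared groups, the slide as a block, 1 array per sample, each sample left out, and, chosen after seeing the data, leaving out the third slide.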

Additional observations from a re-analysis of the deposited data

Results flagged for a closer look

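RAS1, a farnesylated Ras gene, responded to CuSO4 in opposite directions with and without statin: its interaction of statin with CuSO4 was -1.55 ± 0.18 on the log2 scale (limma adjusted p = 0.000270). With statin, RAS1 averaged -0.98 with CuSO4 and 0.03 without, and the 3 samples with CuSO4 lay below the 3 without. Under 18 alternatives the interaction stayed between -1.67 and -1.46, with an adjusted p of at most 0.0228. The interaction of statin with ZnSO4 for RAS1 was -0.63, in the same direction, and was not called. Among the 10 prenylation and dolichol genes themselves, 0 had a called interaction with either metal in limma's fit of all groups (18.4% of all genes tested for CuSO4 and 1.03% for ZnSO4). Groups of 2 or 3 samples were too small for the search for single outlying samples.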

How the results depend on the processing

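The 14 called changes of the 10 genes were recomputed 163 times, leaving out Aquantile, which cannot change a log ratio. They stayed called 117 times, lost their call 46 times and reversed 0 times, and uncalled changes gained a call 9 times. Adding the slide as a replicate block gave 1 gene for CuSO4 against untreated (MRS6), where 0 were called, and ended no call. Samples with the same replicate number, which share a slide, tended to deviate together from their group means (median r = 0.312 over 40 pairs), but not in every pair (r = -0.0902 to 0.688). Pairs with different numbers had a median of -0.148 over 80 pairs. Deviations within a group sum to 0, so this second median largely follows from the first. The block is given as an alternative here. It raised the genes called with statin against untreated to 2643, against 2065 without it. The deposited log ratio gave 1 gene for the interaction with CuSO4. Without the filter on dim probes, 0 were called for ZnSO4 against untreated. With only the compared groups fitted, on fewer samples, 0 were called for either metal added to the statin and 1 for statin with ZnSO4 against ZnSO4. Without the third slide, also on fewer samples, 1 was called with statin against untreated, 0 with ZnSO4, 0 with either metal added to the statin, and 1 for statin with ZnSO4 against ZnSO4. With each sample left out in turn, the count was 2 to 3 for statin against untreated, 0 to 0 for either metal against untreated, 1 to 1 for CuSO4 added to the statin and 0 to 2 for ZnSO4 added, 2 to 3 for statin with CuSO4 against CuSO4, 1 to 3 for statin with ZnSO4 against ZnSO4, and 0 to 0 for either interaction. Where no cause is given, the cause was not tested.

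Counts over all genes moved by more than 1.5 times under some alternatives. CuSO4 added to the statin called 939 genes, and 570 with only its groups fitted. The interaction with ZnSO4 called 58, and 103 with the replicate block, 34 without untreated replicate 1, 98 without statin replicate 2, 32 without untreated replicate 2, 29 without statin replicate 3, 18 without statin with ZnSO4 replicate 3 and 28 without untreated replicate 3. ZnSO4 added to the statin called 1235, and 815 without statin replicate 1 and 757 and 564 without its own replicates 2 and 3. ZnSO4 against untreated called 928, and 611 without untreated replicate 1. Statin with ZnSO4 against ZnSO4 called 1603, and 1025 without ZnSO4 replicate 1 and 1005 and 715 without its own replicates 2 and 3. Without the third slide, calls were 1101 for statin (2065 with it), 1255 for CuSO4 (1939) and 298 for ZnSO4 against untreated, 421 and 289 for CuSO4 and ZnSO4 added to the statin, 1576 (2485) and 484 for the statin beside CuSO4 and ZnSO4, and 380 (1034) and 3 for the interactions with CuSO4 and ZnSO4. Of 150 called changes of genes in the other lists, 55 stayed called under every alternative run, 95 lost their call under at least 1, and 0 reversed. SRT1, near background on the third slide, is limited by its signal.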
